A study of Homo sapiens with 4 samples.

Results

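Genes of the DDX and DHX families of RNA helicases were followed in the transcriptome of HGC27 cells, a human gastric cancer line, after knockdown of AARS1. Members were chosen by name alone, as symbols that begin with DDX or DHX and go on with a number and at most 1 letter, and DDX60 was left out. This gave 50 of the 14431 genes listed, 34 named DDX and 16 named DHX. Most of their products use ATP to unwind short RNA duplexes or to strip proteins from RNA, and they are named for a short run of residues in the ATPase core, the DEAD or the DEAH box. DEAD-box proteins mostly open local duplexes in ribosome assembly, RNA export and translation, and many DEAH-box proteins move along a strand and drive the spliceosome from one step to the next. The name is no guarantee of that activity. DDX26B, now called INTS6L, is related to the Integrator subunit INTS6 and is not an RNA helicase, DDX12P is a pseudogene close to DDX11, and DDX11 is known as a DNA helicase.

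RNA was sequenced from 2 control libraries, labeled wild type, and 2 libraries of cells transfected with small interfering RNA against AARS1 (siAARS1), the cytosolic alanyl-tRNA synthetase. All 4 came from cells grown in DMEM without glucose, with serum, and given 25 mM lactate. The labels give 24 h and the study's text another duration, so the time is uncertain. Nothing states that the libraries came from separate cultures, so the spread between them may be technical. Every group therefore holds lactate, and the contrast asks only what AARS1 knockdown changed in its presence.

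Depth ran from 30653210 to 33522573 reads over the genes listed, and 1 read equaled 0.0293 to 0.0324 CPM, a read count scaled to library size. Log2(CPM + 1) correlated with r = 0.997 across genes in either group, and between groups r was 0.942 to 0.950. AARS1, listed as AARS, measured 428 and 417 CPM in the controls, against 292 and 298 CPM after knockdown, 69.7% of control. On the log2 scale this was -0.52 (SE 0.0357, adjusted p = 2.52e-11 in limma). Of the mesenchymal markers, VIM measured 5131 and 5068 CPM in the controls and 4710 and 4600 CPM after knockdown and FN1 72.6 and 75.4 CPM and then 54.2 and 51.7 CPM, both lower, while ZEB1 measured 6.16 and 6.84 CPM and then 50.0 and 52.3 CPM. Of the epithelial ones, KRT8 measured 24.8 and 25.2 CPM in the controls and 6.61 and 5.08 CPM after knockdown, and CDH1 was below 3 CPM in all 4. EPCAM, KRT18, KRT19, the 5 gastric mucosa markers and the 3 markers of blood and endothelial cells were not among the genes listed. The part of these marker changes in the results below was not tested.

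The box that names the family is shown in the coding sequence of members whose values matter most here, because its codons differed widely in base composition. The residues of the box differ between members too, so codon choice is only part of that difference. Each line gives 30 bases of the GENCODE v29 transcript, 5′ to 3′, with the 4 codons of the box in capitals. The first 6 are the members with the largest rises, the next are the paralog pairs DDX21 and DDX50 (the former among the 6), DDX5 and DDX17, and DDX39A and DDX39B, and DDX41 and DHX37 are GC-rich members that did not rise by 2-fold.
DHX29: gttattgtaGATGAGGTTCATgaaagaagt
DDX46: gttgttttaGATGAAGCAGACagaatgttt
DDX10: ttagttcttGATGAAGCAGATagaatcttg
DDX21: gttgtcctgGATGAAGTGGACcagatgttg
DHX36: atcgtacttGATGAAATCCATgaaagaaat
DDX3X: ttggtgttaGATGAAGCTGATcggatgttg
DDX50: gttgtgcttGATGAAGTGGATcagatgtta
DDX5: cttgtccttGATGAAGCAGATagaatgctt
DDX17: cttgtattgGACGAAGCTGACagaatgctt
DDX39A: tttgtgctgGACGAGTGTGACaagatgctg
DDX39B: tttattttgGATGAATGTGATaagatgctt
DDX41: ctggccctgGACGAGGCTGACcgcatgatc
DHX37: gtgatcatcGACGAGGCCCACgagaggagc
A pattern search, which also required a match to a second conserved motif upstream, found a box in 43 members. It was spelled DEAD in 23, DEAH in 8 and as a variant in the rest. Members without a match may still carry a box, and DDX52 and DDX12P had no coding sequence to search. In DHX37 all 4 codons of the box ended in G or C, and in DDX10 and DDX3X none did. Among the 12 members with a box that rose at least 2-fold, 6 had no codon ending in G or C, 5 had 1 and 1 had 2. Among the other 31, 5 had none, 7 had 1, 13 had 2, 4 had 3 and 2 had 4. The median GC content of the 30-base window was 38.3% in the former and 50.0% in the latter. These counts are descriptive.

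Most DDX and DHX transcripts were higher after AARS1 knockdown. Of 50 members, all of them tested, 37 changed (70.7% of all genes), 33 upward and 4 downward, at a limma adjusted p-value under 0.05, and 13 did not pass. Of the 14199 genes tested 32.6% rose and 38.0% fell. At least 2-fold, 14 members rose and 0 fell, where 10.6% of all genes rose and 1.63% fell that far. The median log2 fold change was 0.30 over the members and -0.05 over all genes. Both siAARS1 libraries lay above both controls for 38 members (38.5% of all genes) and below them for 7 (46.6% of all genes). In the sum over members, 0.506% and 0.507% of the CPM of the control libraries went to these genes and 0.711% and 0.719% of that of the siAARS1 libraries. CPM are shares of a library, so less of a transcript per cell and fewer cells that carry it cannot be told apart. In edgeR on whole reads 35 members rose, where 34.7% of all genes did. The split depended on scaling. Dividing each library by its median shifted the median of all genes to -0.27. Then 22 members rose and 17 fell, where 23.6% of all genes rose and 56.8% fell. At least 2-fold, 11 members rose after that scaling, and 1152 of the 14199 genes tested did. The members' median lay above that of all genes by 0.36 before and 0.34 after that scaling. Such scaling moves nearly all genes by the same amount, so this distance could hardly change.

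**Figure D1:**
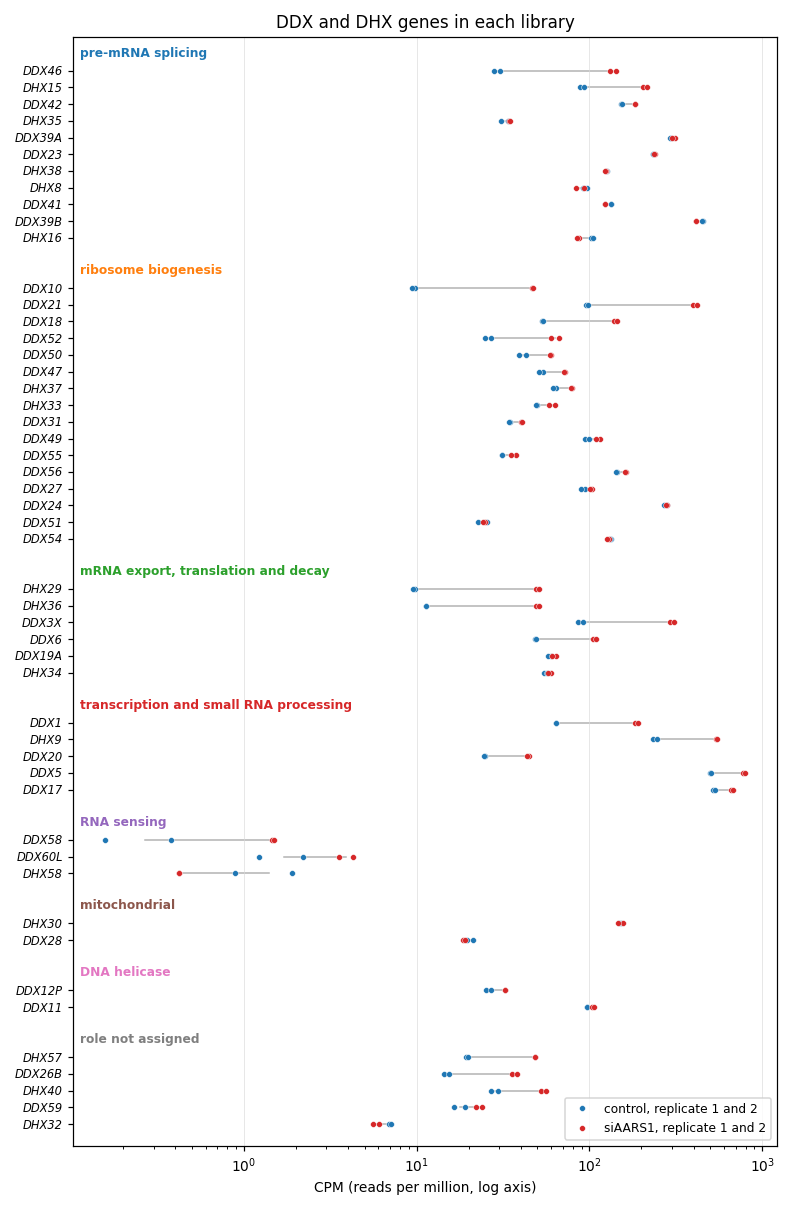
CPM of the 50 DDX and DHX genes in each of the 4 libraries (log axis), grouped by role and ordered by log2 fold change within a role. Blue points are the 2 control libraries, red points the 2 siAARS1 libraries, and the gray line joins the group means. For DHX29, DHX36 and DDX10 the group means lie 4.41-fold to 5.21-fold apart, far more than the replicates differ, and for the RNA sensors all values are below 5 CPM.

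Helicases of ribosome biogenesis, which remodel pre-rRNA and small nucleolar RNA in the nucleolus, rose or did not pass the test. Of 16 members 13 rose and 0 fell, with 4 of them at least 2-fold higher, where 32.6% of all genes rose, 38.0% fell and 10.6% rose that far. DDX10 (ENSG00000178105; chromosome 11, 108665025 to 108940930, GRCh38), needed for early steps of the small subunit, measured 9.83 and 9.42 CPM in the controls, against 46.7 and 47.4 CPM after knockdown. The change was 2.18 on the log2 scale (SE 0.0730, adjusted p = 8.80e-17 in limma), and no siAARS1 library came near a control. DDX21 (ENSG00000165732; chromosome 10, 68956128 to 68985073), which couples RNA polymerase I to pre-rRNA processing, measured 95.9 and 97.5 CPM in the controls, against 396 and 419 CPM after knockdown, which is 2.06 on the log2 scale (SE 0.0398, adjusted p = 1.71e-20 in limma). Per length of transcript it was the most abundant member of this role after knockdown, at 86.5 CPM per kb. DDX18, a nucleolar factor of the large subunit, rose from 53.3 ± 0.566 to 141 ± 3.36 CPM (SD, n = 2), or 1.39 on the log2 scale. DDX52, which acts in the small subunit, rose from 25.8 ± 1.55 to 63.3 ± 5.22 CPM, or 1.26 on the log2 scale.

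The other 9 called members of this role rose by less, between 0.15 (DDX27) and 0.52 (DDX50) on the log2 scale. DDX47, DHX37 and DHX33 were at 0.44, 0.32 and 0.30. DHX37 releases the U3 small nucleolar RNA from the nascent small subunit. DDX31, DDX49, DDX55 and DDX56 lay between 0.17 and 0.23. After median scaling DDX50 and DDX47 stayed past the threshold, at 0.29 and 0.21, and the calls of the other 7 were lost, with DHX37, DHX33 and DDX31 at 0.092, 0.070 and 0.0033 and DDX49, DDX55, DDX56 and DDX27 at -0.012, -0.019, -0.059 and -0.079. DDX31 and DDX55 were also lost under quantile normalization (0.053 and 0.024). Without siAARS1 replicate 1 DDX55 did not pass (0.15), and without control replicate 2 DDX27 did not (0.12). Exons of DDX47 overlap APOLD1 and those of DHX33 overlap C1QBP on the same strand, so these values are uncertain. Exons of DDX31, DDX55 and DDX27 overlap GTF3C4, EIF2B1 and ZNFX1 on the opposite strand, which matters if reads were counted without strand. DDX24, DDX51 and DDX54 did not pass, at 0.03, 0.02 and -0.04, and all were lower after median scaling (-0.21, -0.20 and -0.27). DDX24 measured 281 and 269 CPM in the controls, against 281 and 278 CPM after knockdown, and these overlap.

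Of the 11 helicases of pre-mRNA splicing 3 rose, 3 fell and 5 did not pass the test, where 32.6% of all genes rose and 38.0% fell, and the median log2 fold change was 0.03. DDX46 (ENSG00000145833; chromosome 5, 134758771 to 134855133), the human PRP5, which helps the U2 particle onto the branch site, measured 30.4 and 28.0 CPM in the controls, against 132 and 142 CPM after knockdown. The change was 2.19 on the log2 scale (SE 0.0545, adjusted p = 7.28e-19 in limma). Part of its exons overlap C5orf24 on the same strand, so reads there could be split. DHX15, the human PRP43, which takes the spent spliceosome apart and also serves ribosome assembly, rose from 91.0 ± 3.17 to 209.7 ± 9.56 CPM (SD, n = 2), or 1.20 on the log2 scale. DDX42, found with the U2 component SF3B, rose from 154 ± 1.29 to 183 ± 1.20 CPM, or 0.25 on the log2 scale, and after median scaling it was at 0.018 and did not pass.

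DHX16, the human PRP2, which readies the spliceosome for the first cut, measured 103 and 105 CPM in the controls, against 87.5 and 84.6 CPM after knockdown. It fell by 0.27 on the log2 scale (SE 0.0444, limma adjusted p = 1.77e-05), and the groups did not overlap. DHX38 (PRP16), of the second cut, and DHX8 (PRP22), which releases the mRNA, did not pass, at -0.01 and -0.10, but after median scaling both passed as lower (-0.24 and -0.33). With GC content and length corrected DHX38 was higher (0.29). DHX8 also passed as lower without control replicate 2 (-0.14) and without siAARS1 replicate 1 (-0.17). DDX23, a U5 component needed to form the active spliceosome, measured 232 and 234 CPM in the controls, against 239 and 235 CPM after knockdown, and did not pass, at 0.03, but it was lower after median scaling (-0.21). DDX39B (UAP56), which acts with U2 and loads the export factor ALYREF, fell by 0.13, from 451 ± 4.11 to 413 ± 2.15 CPM (SD, n = 2). It shares exons with the read-through gene ATP6V1G2-DDX39B, so its value is uncertain. DDX41 fell by 0.11 on the log2 scale, and this did not pass without control replicate 1 (-0.11), without control replicate 2 (-0.12), without siAARS1 replicate 2 (-0.11) or in edgeR (-0.078). DDX39A, the paralog of DDX39B, and DHX35 did not pass, at 0.06 and 0.10, and after median scaling DDX39A was lower (-0.18).

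Among helicases of mRNA export, translation and decay 4 of 6 members rose, all at least 2-fold, and 0 fell. Of all genes 32.6% rose, 38.0% fell and 10.6% rose at least 2-fold. DHX29 (ENSG00000067248; chromosome 5, 55256245 to 55307722), which helps the scanning small subunit through structured leaders, measured 9.74 and 9.52 CPM in the controls, against 49.3 and 51.1 CPM after knockdown. The change, 2.27 on the log2 scale (SE 0.0721, adjusted p = 3.58e-17 in limma), was the largest of the 50 with a pseudocount of 1. DDX58 was larger in edgeR (2.46 against 2.42), and DDX46 under quantile normalization (2.10 against 2.08). Under both corrections for base composition described below, DDX10 was among the members above DHX29 (1.78 against 1.42, and 1.27 against 0.47). DHX36 (ENSG00000174953; chromosome 3, 154272546 to 154324497), which unwinds G-quadruplexes, measured 11.4 CPM in both controls, against 49.2 and 51.2 CPM after knockdown, which is 2.05 on the log2 scale (SE 0.0697, adjusted p = 1.13e-16 in limma). DDX3X (ENSG00000215301; chromosome X, 41333284 to 41364472), a factor of translation initiation on structured mRNAs, measured 86.2 and 92.1 CPM in the controls, against 292 and 308 CPM after knockdown, which is 1.74 on the log2 scale (SE 0.0430, adjusted p = 6.81e-19 in limma). In these 3 genes every siAARS1 library lay at least 3-fold above both controls.

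DDX6, which represses translation and promotes decapping in P bodies, rose from 48.7 ± 0.676 to 108 ± 3.04 CPM (SD, n = 2), or 1.13 on the log2 scale. DDX19A, which frees mRNA from proteins at the nuclear pore, and DHX34, a factor of nonsense-mediated decay, were at 0.09 and 0.07 and did not pass, although both siAARS1 libraries lay above both controls, and after median scaling both genes were lower (-0.14 and -0.16). Exons of DDX19A overlap AC012184.2 on the same strand, so its value is uncertain. The paralog DDX19B was not among the genes listed.

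All 5 members with roles in transcription and small RNA processing rose, where 32.6% of all genes did. DDX1 (ENSG00000079785; chromosome 2, 15591178 to 15631111), a subunit of the tRNA ligase complex, measured 64.1 and 64.3 CPM in the controls, against 184 and 191 CPM after knockdown, which is 1.53 on the log2 scale (SE 0.0428, adjusted p = 4.44e-18 in limma). DHX9, also called RNA helicase A, which resolves long duplexes and R-loops, measured 235 and 245 CPM in the controls, against 542 and 544 CPM after knockdown, or 1.18 on the log2 scale. DDX20 (Gemin3), part of the SMN complex that assembles spliceosomal particles, rose from 24.8 ± 0.262 to 44.0 ± 0.882 CPM, or 0.80 on the log2 scale. DDX5 and DDX17, transcriptional coregulators that also act with the microRNA processor DROSHA, rose by 0.64 and 0.34, and by 0.41 and 0.10 after median scaling.

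The 3 RNA sensing members were scarce and are given with their reads. DDX58 (RIG-I, now RIGI), which detects viral RNA with a 5′ triphosphate, had 13 and 5 reads in control and 45 and 50 reads in siAARS1 libraries. The change was 0.97 on the log2 scale with a pseudocount of 1, 2.17 with a pseudocount of 0.1 and 2.46 in edgeR on whole reads, all past the threshold. DDX60L had 75 and 39 reads in control and 110 and 142 reads in siAARS1 libraries, or 0.88 on the log2 scale. DHX58 (LGP2), a regulator of RIG-I signaling, had 65 and 28 reads in control and 13 and 14 reads in siAARS1 libraries. It fell by 0.72 on the log2 scale (SE 0.195, limma adjusted p = 0.00259), and without control replicate 1 it was at -0.41 and did not pass (limma adjusted p = 0.106). With a pseudocount of 0.1 it was at -1.43, and in edgeR at -1.69. The controls of DHX58 and DDX58 differed by more than 2-fold from each other.

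The mitochondrial members DHX30 and DDX28, both of mitochondrial ribosome assembly, did not pass, at 0.02 and -0.11. DDX11 and DDX12P rose by 0.11 and 0.31, but reads of these near-identical genes may have been split between them. The DDX11 call was lost without control replicate 1 (0.11), without control replicate 2 (0.11) and without siAARS1 replicate 2 (0.093). After median scaling DDX11 passed as lower (-0.12). Of the 5 members without an assigned role 4 rose, where 32.6% of all genes did: DHX57 (1.26), DDX26B (1.26), DHX40 (0.92) and DDX59 (0.36). The calls of DDX59 and DDX12P were lost after median scaling (0.13 and 0.080) and under quantile normalization (0.12 and 0.11), and that of DDX11 under the latter (0.074). DHX32 did not pass, at -0.23, but it and DDX28 were lower after median scaling (-0.43 and -0.33) and under quantile normalization (-0.39 and -0.34). DHX30 was lower after median scaling (-0.21).

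**Figure D2:**
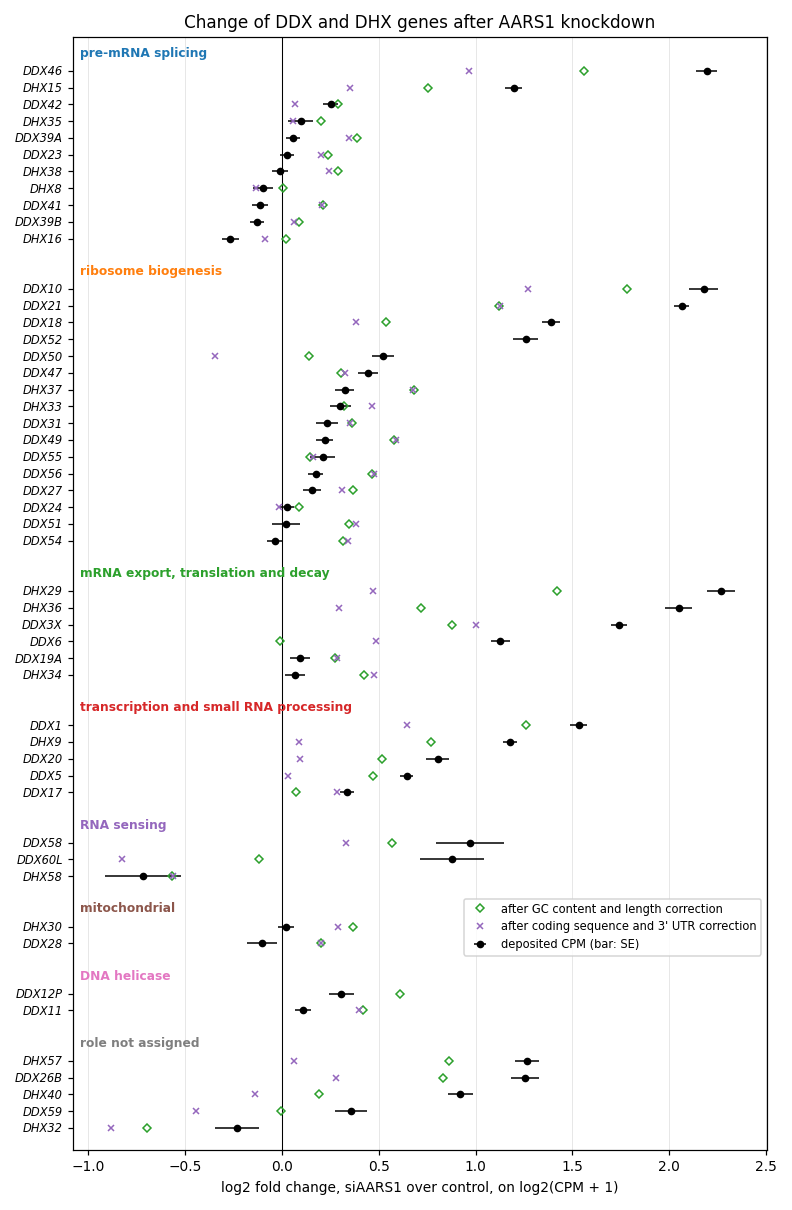
Log2 fold change of each member, siAARS1 over control, on the log2(CPM + 1) scale. Black points with SE bars are the deposited CPM, green diamonds the values after correction for transcript GC content and length, and purple crosses those after correction for coding sequence and 3' UTR. The 6 largest rises run from 1.74 to 2.27 before correction and from 0.72 to 1.78 after the one on GC content and length. After the one on coding sequence and 3' UTR they run from 0.29 to 1.27.

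The size of the change followed the base composition of the transcripts, in these families as over all genes. The 13 members at least 2-fold higher that had a GC value lay between 38.5% and 44.1% GC, and the median was 42.2%, against 51.4% in the other members. Over 49 members the log2 fold change and GC content had r = -0.72 (Spearman's rho = -0.75), and with GC content at the third codon position rho was -0.77 over 48 members. Over 13819 genes these were r = -0.61 and rho = -0.65 for transcript GC content, and rho = -0.68 for the third codon position over 12312 genes. Genes share libraries and sequence features, so these values are descriptions.

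Split by quintiles of GC content over all genes, 8 members fell in the lowest (27.8% to 41.5%) and all 8 rose, where 79.9% of all genes of that quintile rose. In the next quintile 15 of 16 members rose, where 52.6% of all genes did. In the third quintile 4 of 9 rose (19.5% of all genes), in the fourth 3 of 11 (6.48%), and in the highest 2 of 5 (5.03%). In that order the members had median log2 fold changes of 1.26, 0.99, 0.10, 0.02 and 0.07, and all genes 0.77, 0.21, -0.12, -0.24 and -0.30. The members' median was the higher one in each quintile, a difference that was not tested.

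**Figure D3:**
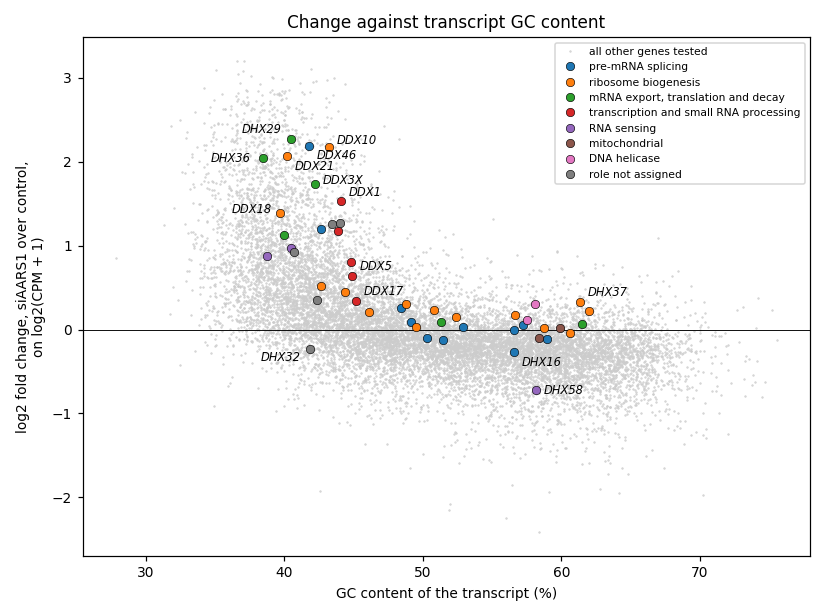
Log2 fold change on log2(CPM + 1) against GC content of the transcript for 49 members, colored by role, and for all other genes tested with a GC value (gray). DHX36, DHX29, DDX21, DDX46, DDX10 and DDX3X sit at the GC-poor end, between 38.5% and 43.2% GC, with log2 fold changes of 1.74 to 2.27, and no member above 46% GC exceeds 0.33.

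The families were examined again after the smooth trend on GC content and length had been taken out of each library, which also removes any true change that follows these properties. Of 49 members with a value 42 then rose and 2 fell, where 32.9% of all genes rose and 33.3% fell. The members that fell were DHX32 (-0.70) and DHX58 (-0.57). At least 2-fold, 5 members remained, where 3.30% of all genes rose that far, and they were DDX10 (1.78), DDX46 (1.56), DHX29 (1.42), DDX1 (1.26) and DDX21 (1.12). Of the 13 members that had risen at least 2-fold, 12 stayed higher and past the threshold, and DDX6 was at -0.0086. DDX39B and DDX41, which had fallen, rose after the correction (0.086 and 0.21), and DHX16 was at 0.023 and did not pass. In ribosome biogenesis all 15 members with a value rose, DDX24, DDX51 and DDX54 among them.

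A second correction, on GC content and length of the coding sequence and the 3' UTR, was chosen after the data were seen. It left 33 of 48 members higher and 8 lower, where 34.1% of all genes rose and 31.4% fell. At least 2-fold rises were left in DDX10 (1.27), DDX21 (1.12) and DDX3X (1.00), where 1.20% of all genes rose that far. DHX29, DHX36 and DHX9 stayed past the threshold at 0.47, 0.29 and 0.087, down from 2.27, 2.05 and 1.18. DHX57 (0.062), DDX5 (0.030), DDX20 (0.093), DDX42 (0.066) and DDX58 (0.33) did not pass. The 8 lower members were DHX32 (-0.88), DDX60L (-0.83), DHX58 (-0.56), DDX59 (-0.44), DDX50 (-0.35), DHX40 (-0.14), DHX8 (-0.13) and DHX16 (-0.085). DDX10 and DDX21 rose at least 2-fold under both corrections. DDX52 has no value under either, since no GENCODE v29 transcript was matched to it.

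In 3 pairs of close paralogs the ratio of the partners differed between the groups in every library. DDX21 and DDX50, nucleolar paralogs encoded side by side on chromosome 10, had log2 fold changes of 2.06 and 0.52. The log2 ratio of DDX21 to DDX50 averaged 1.22 in the controls, and it was 2.71 and 2.81 after knockdown, above both controls, a difference of 1.54. For DDX5 over DDX17 the ratio was -0.063 and -0.080 in control and 0.24 and 0.24 in siAARS1 libraries, a difference of 0.31. For DDX39A over DDX39B, the paralogs of splicing and mRNA export, it was -0.62 and -0.62 in control and -0.40 and -0.47 in siAARS1 libraries, a difference of 0.18. For each of the 3 pairs a two-sided exact permutation test gave p = 0.333, the smallest value 2 libraries against 2 allow. GC content was 40.2% in DDX21 and 42.6% in DDX50, 44.9% in DDX5 and 45.2% in DDX17, and 57.2% in DDX39A and 51.5% in DDX39B. With GC content and length corrected, the changes were 1.12 and 0.14 for DDX21 and DDX50, 0.47 and 0.073 for DDX5 and DDX17, and 0.39 and 0.086 for DDX39A and DDX39B. With coding sequence and 3' UTR corrected they were, in the same order, 1.12 and -0.35, 0.030 and 0.29, and 0.35 and 0.062. Under that correction DDX17 rose more than DDX5, the reverse of the order before it.

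Per length of transcript, the same 4 members led in both groups, and others moved up. In control cells DDX39B (212 CPM per kb), DDX39A (199.5), DDX5 (196.5) and DDX17 (110) led, and in siAARS1 cells DDX5 (307), DDX39A (208), DDX39B (194) and DDX17 (139) did. DDX39B and DDX39A lay close together in both groups, and the order of neighbors this close was not tested. DDX21 moved from place 21 of 49 to place 6, at 20.5 and 86.5 CPM per kb, and DDX46 from place 37 to place 20, at 7.63 and 35.8. DHX29 moved from place 45 to 34 and DDX10 from 43 to 31. DHX36 stayed near the end, at place 46 and 44, with 1.69 and 7.46 CPM per kb. The RNA sensors held the last places in both groups.

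**Figure D4:**
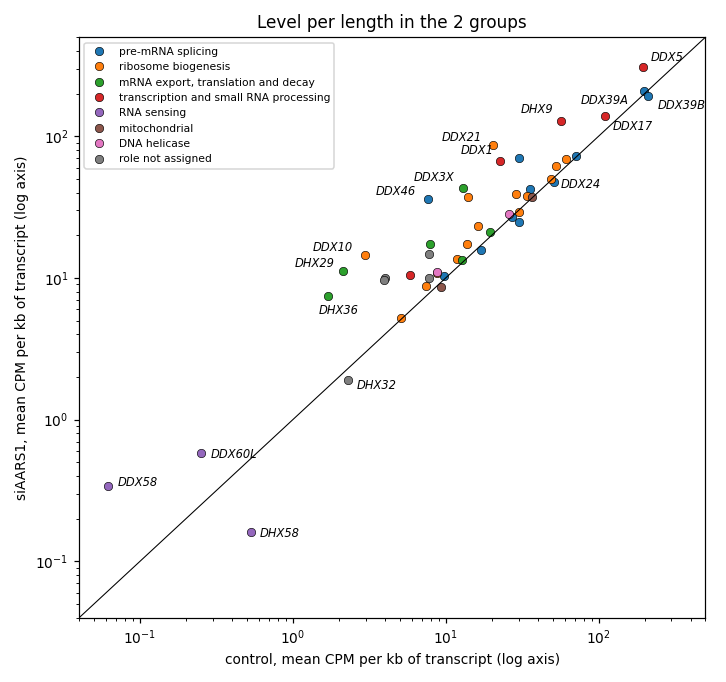
Mean CPM per kb of transcript in the 2 control libraries against that in the 2 siAARS1 libraries for 49 members, both axes logarithmic, with the line of equality. DDX39A and DDX39B lie near the line at 194 to 212 CPM per kb, while DDX21, DDX46, DDX10, DHX29 and DHX36 lie above it by 4.22-fold to 5.21-fold.

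Of 25 helicases outside the DDX and DHX names, most but not all of them RNA helicases, 19 were among those listed. Of these 11 rose, 5 fell and 3 did not pass, with 8 at least 2-fold higher. Of all genes 32.6% rose, 38.0% fell and 10.6% rose at least 2-fold. ASCC3, which resolves collided ribosomes, rose from 7.12 ± 0.814 to 63.2 ± 4.58 CPM (SD, n = 2), or 2.99 on the log2 scale. SKIV2L2 (MTREX), the helicase of the nuclear exosome, was at 2.47. The largest falls were in HELZ2 (-0.70), MOV10 (-0.60) and SKIV2L (-0.29), the last being the cytoplasmic counterpart of SKIV2L2. Of the eIF4A enzymes, EIF4A2 rose by 0.42 and EIF4A1 by 0.12, and EIF4A3, the exon junction helicase, did not pass, at -0.05. After median scaling EIF4A1 passed as lower (-0.11), and 9 genes of the list rose and 9 fell, where 23.6% of all genes rose and 56.8% fell. With GC content and length corrected 14 rose and 2 fell, where 32.9% of all genes rose and 33.3% fell. ASCC3 was then at 1.74 and SKIV2L2 at 1.54, and SKIV2L (0.040) and EIF4A2 (-0.0081) did not pass. With coding sequence and 3' UTR corrected 9 rose, 4 fell and 0 rose at least 2-fold, with ASCC3 at 0.60 and SKIV2L2 at 0.78. Of all genes 34.1% rose, 31.4% fell and 1.20% rose at least 2-fold under that correction.

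Of 48 genes of proteins that bind or activate these helicases 32 rose, 5 fell and 11 did not pass, with 6 at least 2-fold higher. Without a correction 32.6% of all genes rose, 38.0% fell and 10.6% rose at least 2-fold. The 3 largest rises were in THOC2 (2.67), SF3B1 (1.80) and THOC1 (1.69), the first and last from the THO complex of mRNA export, where DDX39B acts, and SF3B1 from the U2 particle that DDX46 remodels. SUGP1 (-0.24), EIF4H (-0.18) and GLE1 (-0.16) had the largest falls, and none of them passed once GC content and length were corrected (0.059, 0.042 and -0.059). GLE1 activates the DDX19 enzymes at the nuclear pore. After median scaling 18 genes of this list rose and 20 fell, where 23.6% of all genes rose and 56.8% fell. With GC content and length corrected, 33 rose and 5 fell, where 32.9% of all genes rose and 33.3% fell, and THOC2, SF3B1 and THOC1 were at 1.39, 0.78 and 1.13. With coding sequence and 3' UTR corrected 31 rose and 5 fell, where 34.1% of all genes rose and 31.4% fell. Only 1 was then at least 2-fold higher (1.20% of all genes), and THOC2, SF3B1 and THOC1 were at 0.51, 0.27 and 0.62.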

How the data were processed

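The authors deposited 1 table of CPM values, with gene identifiers and symbols. The submitters' processing notes name RSEM 1.3.3 and hg38. The annotation, the use of strand and the filter on low genes are not given in the sources used here. Exons of some members, DHX16, DDX17 and DDX42 among them, overlap other genes on the opposite strand. Their values are uncertain if reads were counted without strand. Every listed gene exceeded 1 CPM in at least 1 library. CPM corrects for library size, not for length or GC content. In each library 100.0% of the values were whole multiples of 1 read, within 0.1 read. On these recovered counts the libraries of a group differed beyond sampling noise (chi-square per gene 3.63 and 3.62), so all 4 were kept.

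Log2(CPM + 1) values of siAARS1 and control were compared in limma 3.58.1 under R 4.3.3, with a trend in eBayes, for genes whose mean reached 1 CPM in either group. Fold changes are on that scale, which understates the change of low genes. P-values were adjusted over all genes tested (Benjamini-Hochberg), with a threshold of 0.05, and SD is over 2 libraries. The fit was also run on simulated counts in which few genes changed, unlike these data. That run does not show how well the p-values hold here. edgeR 4.0.16 and DESeq2 1.42.0 were run on the recovered reads. Base composition came from 1 GENCODE v29 transcript per gene (13819 of the 14199 genes tested) and was fitted per library with mgcv 1.9.3. Coordinates are from GENCODE v29 on GRCh38, which may not be the authors' annotation. Gene names in the text were all 50 members, and the 3 largest called rises and falls of each list with the eIF4A genes, except 1 gene that is not reported here. Values per library were given for the largest rises and falls and for paralogs. The members, roles and lists were chosen with earlier results of these data known.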

Additional observations from a re-analysis of the deposited data

How the results depend on the processing

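The number of members that passed stayed within 1.5 times of 37 under all alternatives, as did the counts for all genes and for both other lists. AARS1 was lower and past the threshold in all of them, and the 14 members at least 2-fold higher were higher and past it in every fit without a correction for base composition. The corrections could not be applied to DDX52. The median log2 fold change of the members was 0.075 under median scaling, 0.19 under quantile normalization, 0.35 in edgeR, 0.36 in DESeq2 and 0.36 under the GC content and length correction, with or without the replicate block. Across the fits that each left out 1 library it ran from 0.26 to 0.30. With 2 libraries a group, low genes such as DDX58 and DHX58 are measured with little precision. No cause of the changes below was tested.

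The groups share replicate numbers, which the labels do not call pairs, and the deviations of libraries with the same number had r = 0.118 over genes. In the fit with a replicate block 10389 genes passed in place of 10032, and 38 members in place of 37, DHX8 being added.

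These members changed sign. Median scaling did so for DDX49 (-0.012), DDX55 (-0.019), DDX56 (-0.059), DDX27 (-0.079), DDX11 (-0.12), DHX35 (-0.13), DDX19A (-0.14), DHX34 (-0.16), DDX39A (-0.18), DDX51 (-0.20), DDX23 (-0.21), DDX24 (-0.21) and DHX30 (-0.21). Quantile normalization did so for DHX35 (-0.094), DHX34 (-0.036) and DDX51 (-0.20). The GC content and length correction did so, with and without the replicate block, for DDX6 (-0.0086), DDX60L (-0.12), DDX59 (-0.0027), DHX38 (0.29), DDX54 (0.32), DHX8 (0.0032), DDX28 (0.20), DDX41 (0.21), DDX39B (0.086) and DHX16 (0.023). The coding sequence and 3' UTR correction, added after the data were seen, did so for DHX40 (-0.14), DDX60L (-0.83), DDX50 (-0.35), DDX59 (-0.44), DDX24 (-0.015), DHX38 (0.24), DDX54 (0.34), DDX28 (0.20), DDX41 (0.21) and DDX39B (0.062). On whole reads DHX38 and DDX54 were at 0.026 and 0.00057 in edgeR and at 0.041 and 0.015 in DESeq2. Leaving out 1 library turned only genes that had not passed, DDX51 (-0.059 to 0.10), DHX38 (-0.025 to 0.0022), DDX24 (-0.0053 to 0.055) and DHX30 (-0.024 to 0.062).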
